A study of Mus musculus with 4 samples.

Results

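The 40 interferon-stimulated genes described here are genes that interferon is known to switch on, and their RNA was measured in infarcted left ventricles that carry or lack KDM5B, on day 7 after myocardial infarction (MI). They were taken by name from the gene annotation of the array, which held 63 probes for them among 41174 probes for 27376 named genes, and each gene is given by its brightest probe over the 4 arrays. All 40 were well above background on all 4 arrays, so no member was lost to the filter on dim probes, and 59 of the 63 probes were tested.

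For MI, the left anterior descending artery of mice labelled male and 8 to 10 weeks old was tied off for good. The KO mice carried a CRISPR/Cas9 deletion, not limited to a cell type, that takes the JmjC domain from Kdm5b, which encodes a histone H3 lysine 4 demethylase, and shifts the reading frame. The KO mice were on a C57BL/6 background, and the WT mice were C57BL/6 littermates with an intact gene. All mice were infarcted, and no uninfarcted heart was measured. RNA of whole left ventricle, a mixture of cardiomyocytes, fibroblasts, endothelial cells and leukocytes, was hybridised to 4 Agilent Whole Mouse Genome one-colour arrays. Each genotype had 2 arrays, which the titles number 2 and 3 (WT 2, WT 3, KO 2 and KO 3). The arrays of a genotype carried opposite Xist and Y-linked signals (given below), so they did not come from a single mouse, and whether mice were pooled is not stated.

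Interferons are cytokines that cells release on sensing viral or their own displaced nucleic acid, and dying heart muscle after MI is a known source of such nucleic acid. Type I interferons, such as interferon beta, act through the receptor pair Ifnar1 and Ifnar2 and the kinases Jak1 and Tyk2, which lead Stat2 and Irf9 into a complex that binds the interferon-stimulated response element (ISRE) in promoters. Interferon gamma acts through Ifngr1 and Ifngr2 on promoters with the gamma-activated site (GAS), and it is the stronger inducer of guanylate-binding proteins and of the machinery that loads peptides onto MHC class I.

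Promoters are shown for the members whose values are followed below and that hold the ISRE letters before their start, so that these letters can be seen. Binding to them was not measured. They come from RefSeq on GRCm38.p6, each is written 5′ to 3′ in the direction of the gene, and capitals mark GAAA, any pair of bases and GAAA again, or the reverse complement.
Gbp2, chr3:142620579-142620638, + strand: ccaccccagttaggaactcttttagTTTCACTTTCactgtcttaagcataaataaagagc
Isg15, chr4:156200850-156200921, - strand: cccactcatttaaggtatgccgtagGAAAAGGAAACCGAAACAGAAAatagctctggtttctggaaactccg
Oas3, chr5:120777700-120777759, - strand: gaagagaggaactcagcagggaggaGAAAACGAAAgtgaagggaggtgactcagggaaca
Stat2, chr10:128270251-128270310, + strand: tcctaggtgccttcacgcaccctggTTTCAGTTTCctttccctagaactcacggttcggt
Rsad2, chr12:26456538-26456597, - strand: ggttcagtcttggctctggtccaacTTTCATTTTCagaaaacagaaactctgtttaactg
Ifit1, chr19:34640760-34640838, + strand: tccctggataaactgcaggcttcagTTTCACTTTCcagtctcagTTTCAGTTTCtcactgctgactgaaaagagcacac

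Isg15 held 3 overlapping matches, which begin 78, 72 and 66 bases before the start, and Ifit1 held 2 that begin 104 and 85 bases before it. Those of Gbp2 and Oas3 begin 59 and 75 bases before the start, that of Rsad2 120 and that of Stat2 222 bases before it. Of the 31 members with a promoter record, which runs from 250 bases before to 50 bases after the start, 13 held the letters on either strand (41.94%), against 3.99% of 27025 genes (3.44% of 32851 promoters). The other members with a match were Bst2, Ddx58, Eif2ak2, Gbp3, Ifih1, Ifit3 and Ifitm3. The GAS letters, TTCNNNGAA on either strand, were in 7 of 31 members (22.58%) and in 9.55% of all genes, namely Bst2, Eif2ak2, Ifi35, Ifit2, Ifitm3, Irf1 and Psmb8. The match of each motif is a description of letters, and in Bst2, Eif2ak2 and Ifitm3 both were found. Mx1, Mx2, Oas2, Usp18, Zbp1, Dhx58, Parp9, Parp14 and Rtp4 had no record in the promoter table.

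Values below are log2 signals after the 75th percentile of each array was set to 0. A difference is KO minus WT on that scale, so that 1 is 2-fold. Kdm5b itself was at -0.87 (WT 2), -1.81 (WT 3), -2.40 (KO 2) and -2.26 (KO 3). Each KO array was below each WT array, by 0.996 on average (SE 0.40, limma adjusted p = 0.9999), and whether its probe lies in the deleted part was not determined. The labels call all mice male, yet Xist was bright on both number 2 arrays and near background on both number 3 arrays, while 4 Y-linked genes showed the reverse, so the array number separates arrays that go against the label from arrays that fit it. Each difference was therefore also taken within number 2 and within number 3, where it rests on 1 array a genotype and has no replicate. KO 2 stood apart in its cell type markers. The summed linear signal of 12 leukocyte markers, including Lyz2, Ptprc (CD45), Cd68 and Csf1r, was 351 (WT 2), 393 (WT 3), 195 (KO 2) and 447 (KO 3) in units of the 75th percentile. Lyz2 was the brightest of the 12 and weighs most in that sum. Their mean log2 signal, in which each marker counts alike, was 3.26, 3.66, 1.93 and 3.98 in the same order. The summed signal of 12 cardiomyocyte markers was 2164, 1217, 3799 and 956 in that order. In whole tissue, fewer cells of a type and less RNA per cell cannot be told apart. The WT arrays occupied the first positions on the single slide and the KO arrays the last, so position and genotype cannot be told apart.

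Over the interferon-stimulated genes, the median difference between KO and WT hearts was small. The median difference of the 40 members was -0.07, with 14 higher and 26 lower in KO, against a median of 0.02 over all 28305 tested probes. The range ran from -0.84 for Oas3 to 0.43 for Ifit1, and standard errors ran from 0.20 to 0.68. No member was called by limma (adjusted p under 0.05 with a fold over 2), the share of all tested probes so called being 0%, and the adjusted p of every member was 0.9999. The lowest unadjusted limma p of a member was 0.116, for Tap1. At an unadjusted p under 0.05 limma gave 0 members and 410 probes, or 1.45% of those tested, and a fold over 2 in either direction was seen for 0 members and 3.35% of probes. The smallest two-sided p that an exact permutation test of 2 arrays against 2 allows is 0.333.

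The intervals show how large a difference the arrays could have missed. For 25 of 40 members (62.5%) the 95% interval of limma lay wholly within 2-fold in both directions, as it did for 40% of all tested probes. With all arrays kept, that count ran from 16 with the methods' t-test to 30 under normexp background correction. It is not given for fits without 1 array, where the spread rests on the arrays of the other genotype alone. For the 15 members outside the 25, among them Oas3, Mx1, Zbp1, Tap1, Gbp2, Irf1, Ifit1, Ifit2 and Cmpk2, a 2-fold difference in one direction or both was within the interval. The median size of the difference, whatever its sign, was 0.12 over the members and 0.22 over the brightest tested probe of each named gene. From the lowest to the highest array the median member spanned 0.48, and the median tested probe 0.72.

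**Figure D1:**
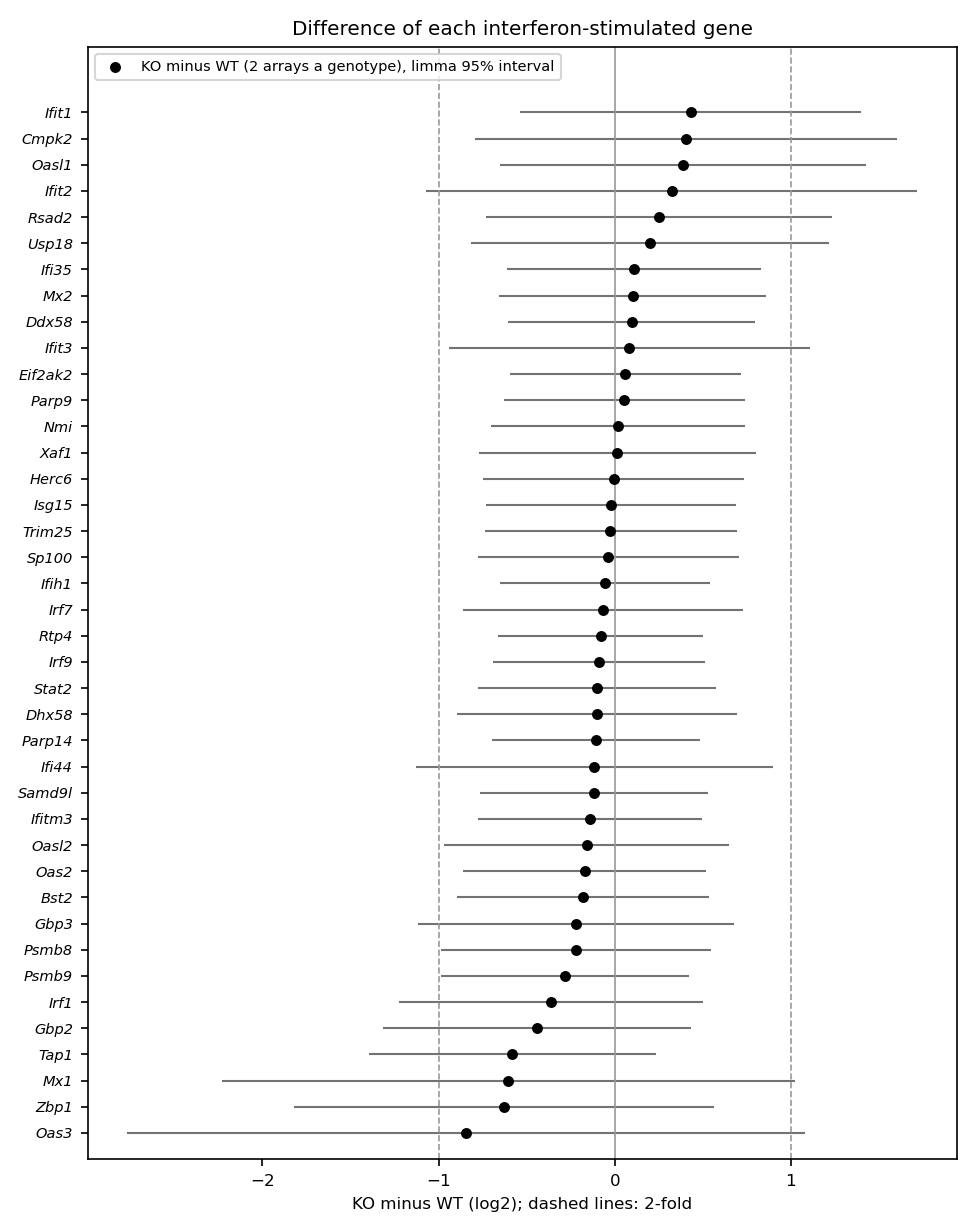
KO minus WT for each of the 40 interferon-stimulated genes in log2 units (points, 2 arrays a genotype), with the 95% interval of limma (lines) and 2-fold marked by dashed lines. Every interval crosses 0, the points run from -0.84 for Oas3 to 0.43 for Ifit1, and the widest interval is that of Oas3.

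The nucleic acid sensors were examined first, since they stand at the start of the interferon response. Ifih1, which encodes the long double-stranded RNA sensor MDA5, was at 0.87 (WT 2), 0.88 (WT 3), 0.74 (KO 2) and 0.89 (KO 3) (probe at chr2:62435621-62435680, mm9). The arrays overlapped, with KO 2 lowest and KO 3 highest, and the difference was -0.05 (SE 0.21, limma adjusted p = 0.9999). Its second tested probe differed by 0.09, the opposite sign. Zbp1, a sensor of Z-form nucleic acid that can trigger necroptosis, was at 1.26 (WT 2), 0.74 (WT 3), -0.06 (KO 2) and 0.80 (KO 3) (chr2:173032113-173032170, mm9). KO 2 alone was low, KO 3 lay between the WT arrays, and the difference of -0.63 (SE 0.42) was -1.32 at number 2 and 0.06 at number 3, and it was -0.20 when KO 2 was left out. Ddx58, which encodes RIG-I, its relative Dhx58, and Eif2ak2, the double-stranded RNA-activated kinase PKR, differed by 0.10, -0.10 and 0.06. The 3 dimmer probes of Ddx58 differed by -0.18, -0.03 and -0.19, so its sign depended on the probe.

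Among the transcriptional regulators, the members of the ISGF3 complex varied little. Stat2 was at 1.60 (WT 2), 1.47 (WT 3), 1.28 (KO 2) and 1.60 (KO 3), and Irf9 was at 1.40, 1.46, 1.42 and 1.26 in the same order. For both genes the KO arrays lay on either side of at least 1 WT array, with differences of -0.10 (SE 0.24) for Stat2 and -0.09 (SE 0.21) for Irf9. Irf7, the factor that amplifies type I interferon production, was at -0.24 (WT 2), -0.46 (WT 3), -0.18 (KO 2) and -0.66 (KO 3) (difference -0.07, SE 0.28). Its highest and its lowest value were both KO arrays. Irf1, which interferon gamma induces, differed by -0.36 (SE 0.30), of which WT 2 at 3.55 made most, since WT 3, KO 2 and KO 3 stood at 2.94, 2.83 and 2.95. Nmi and its partner Ifi35 differed by 0.02 and 0.11, and the nuclear body protein gene Sp100 by -0.04.

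ISG15 is a ubiquitin-like protein that is joined to other proteins in interferon-treated cells, and its gene was at 2.02 (WT 2), 1.85 (WT 3), 1.73 (KO 2) and 2.09 (KO 3). The KO arrays enclosed both WT arrays, so the difference of -0.02 (SE 0.25) was smaller than the distance between arrays of a genotype. Usp18, which removes ISG15 and dampens receptor signalling, differed by 0.20 (SE 0.36), and Herc6, the mouse ligase that attaches ISG15, by -0.01. Trim25, a ubiquitin ligase that acts on RIG-I, differed by -0.02, while its dimmer probe differed by 0.22. Of the poly-ADP-ribosyltransferase pair that share a chromosome 16 neighbourhood, Parp9 differed by 0.05 and Parp14 by -0.11. Parp14 was at 2.88 (WT 2), 2.84 (WT 3), 2.81 (KO 2) and 2.69 (KO 3), so its KO arrays lay just below its WT arrays, by less than the limma SE of 0.21, and its other tested probes differed by -0.42 and 0.05.

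The IFIT genes were the one role of the list in which each member was higher in KO at both numbers. IFIT proteins bind viral RNA that lacks host cap methylation. Ifit1, whose promoter pair of ISRE matches is shown above, was at 0.69 (WT 2), 0.06 (WT 3), 1.002 (KO 2) and 0.61 (KO 3) (chr19:34723796-34723855, mm9). WT 3 was low, KO 2 was highest and KO 3 lay below WT 2, so the genotypes overlapped, with a difference of 0.43, or 1.35-fold (SE 0.34, limma adjusted p = 0.9999), which was 0.24 when KO 2 was left out. Ifit2 was at -0.15 (WT 2), -0.70 (WT 3), 0.45 (KO 2) and -0.65 (KO 3), and its difference of 0.32 (SE 0.49) was 0.60 at number 2 but 0.05 at number 3. Leaving out KO 2 turned it to -0.22. Ifit3 differed by 0.08 (SE 0.36). In all 3 genes the number 2 arrays of both genotypes lay above both number 3 arrays, by 0.54 to 0.64 in WT and by 0.39 to 1.09 in KO. In WT, the separation by number was wider for each of the 3 genes than its mean difference by genotype.

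Mx1 and Oas3 had the widest intervals of the list, and their differences changed most with the processing. Mx1, a dynamin-like antiviral GTPase gene that is known to be disrupted in C57BL/6 mice, was at -3.70 (WT 2), -3.99 (WT 3), -5.17 (KO 2) and -3.74 (KO 3) (chr16:97669616-97669675, mm9). KO 2 was more than 2-fold below every other array and KO 3 lay between the WT arrays, which gave -0.60 (SE 0.57) in the fit, -1.47 at number 2 and 0.26 at number 3. The difference of Mx1 was 0.11 without KO 2 and 0.0989 under normexp background correction, and its second probe was too dim to be tested. Oas3, whose enzyme makes the oligoadenylates that activate RNase L, was at -2.94 (WT 2), -2.31 (WT 3), -4.29 (KO 2) and -2.64 (KO 3) (chr5:121203598-121203657, mm9). Again KO 2 was far below the other arrays while KO 3 stood between the WT arrays, with -0.84, or 1.79-fold lower (SE 0.68, limma adjusted p = 0.9999). The difference of Oas3 was -0.26 under normexp, where those of Zbp1 and Gbp2 were lower, and -0.0175 without KO 2. A second Oas3 probe, at -3.73, -3.77, -4.83 and -3.91 on WT 2, WT 3, KO 2 and KO 3, differed by -0.62 and also had its lowest value on KO 2. Unlike on the brighter probe, KO 3 lay below both WT arrays on this probe.

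The 3 members that were more than 2-fold lower in KO at number 2 were Zbp1, Mx1 and Oas3 (7.5% of members), where 8.84% of all probes were so and 6.19% were more than 2-fold higher, a direction with 0 members. At number 3 no member was more than 2-fold apart in either direction, and 4.01% of probes were. On KO 2, where these 3 genes were low, all 12 leukocyte markers were also below WT 2, with a median of -1.41, and the part of this in their values was not tested. Mx2 differed by 0.10, Oas2 by -0.17 and Oasl2 by -0.16. Oasl1, which was at -0.11 (WT 2), -0.82 (WT 3), 0.14 (KO 2) and -0.29 (KO 3), differed by 0.39 (SE 0.36), or 0.17 when KO 2 was left out, and its lowest array was WT 3, as in the IFIT genes.

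**Figure D2:**
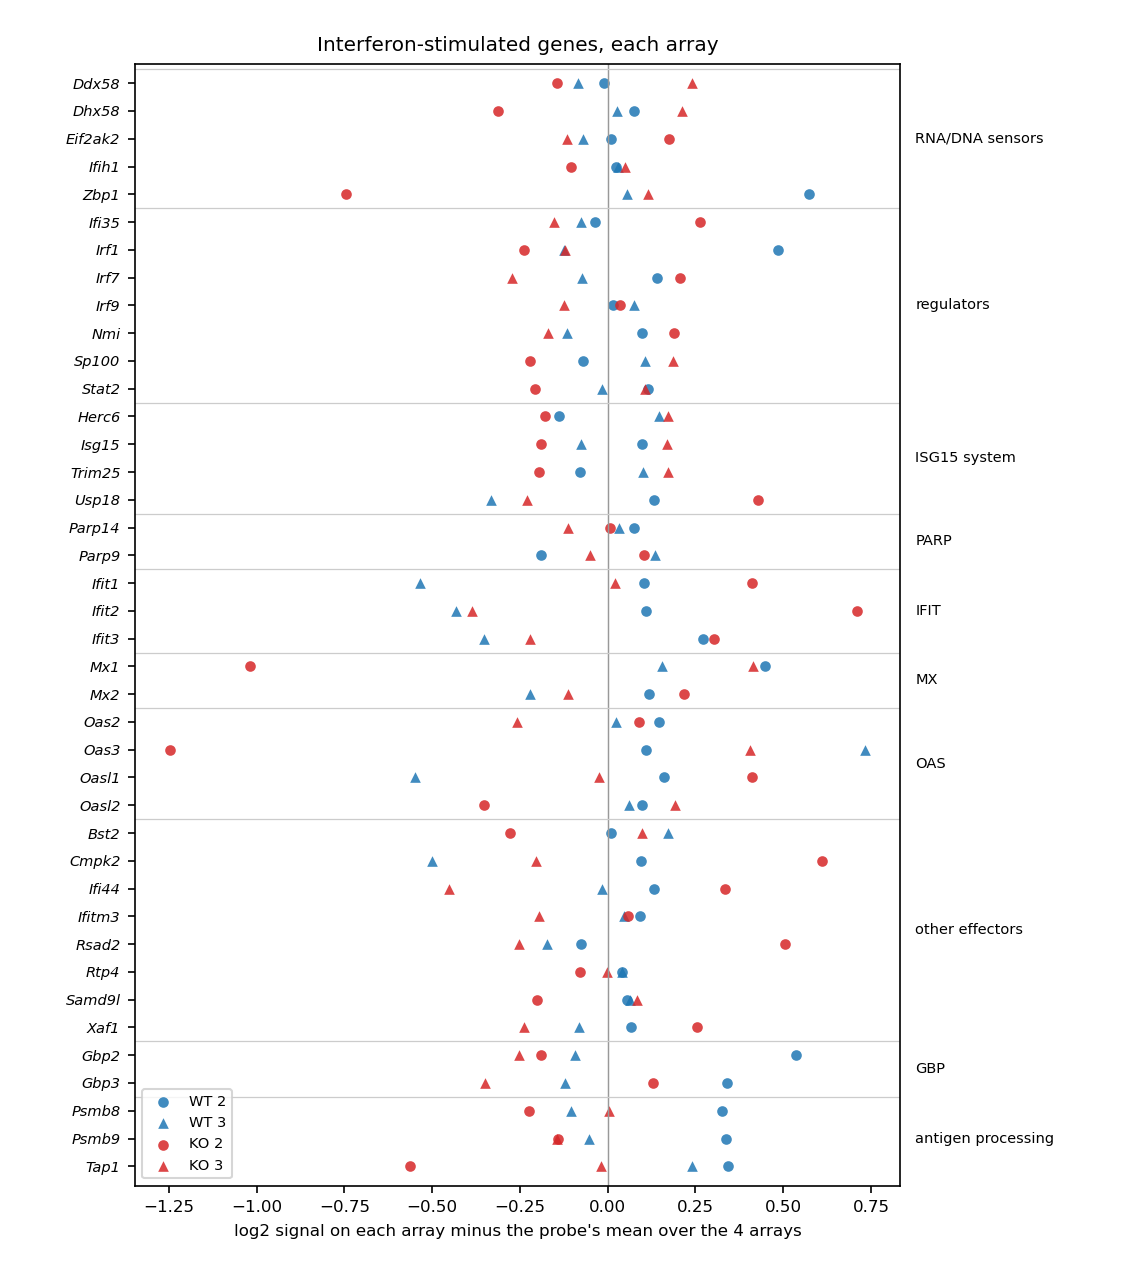
Log2 signal of each interferon-stimulated gene on each array minus the mean of its probe over the 4 arrays, grouped by role (colour: WT blue, KO red; circles: number 2, triangles: number 3). KO 2 lies far to the left for Oas3, Mx1 and Zbp1 and to the right for the IFIT genes, Cmpk2 and Rsad2, and the 2 colours are mixed in most rows.

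Of the remaining effectors, Rsad2 (viperin, which makes a chain-terminating nucleotide) and its neighbour on chromosome 12, Cmpk2 (which supplies the nucleotide precursor), had their highest signal on KO 2, as the IFIT genes did. Cmpk2 was at -0.10 (WT 2), -0.70 (WT 3), 0.41 (KO 2) and -0.40 (KO 3) (difference 0.41, SE 0.42). Rsad2 was at 1.05 (WT 2), 0.95 (WT 3), 1.63 (KO 2) and 0.87 (KO 3) (difference 0.25, SE 0.34). In both, KO 3 lay below WT 2, and without KO 2 the difference was -0.0019 for Cmpk2 and -0.13 for Rsad2. All other tested probes of both genes were also higher on average in KO, by 0.21 for Cmpk2 and by 0.29 and 0.52 for Rsad2. The virus-tethering protein gene Bst2 differed by -0.18, the entry inhibitor gene Ifitm3 by -0.14, Samd9l by -0.12, Ifi44 by -0.12 and Xaf1 by 0.02. A dimmer probe of Ifi44 differed by 0.14, and one of Sp100 by 0.13, in each case opposite to the brighter probe. Rtp4 was at 3.35 on both WT arrays, 3.23 on KO 2 and 3.31 on KO 3, so that its KO arrays lay below its WT arrays by no more than 0.12.

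The interferon gamma-responsive members, 2 guanylate-binding protein genes and 3 antigen-processing genes, were all lower on average in KO, and none passed the test. Antigen-processing genes outside the list went in both directions. Psme1, Psme2 and Psmb10 differed by 0.34, 0.18 and 0.20 and were higher in KO at both numbers. Tap2, Tapbp and B2m differed by -0.52, -0.20 and -0.17. Gbp2, a GTPase gene that acts against intracellular pathogens, was at 2.96 (WT 2), 2.33 (WT 3), 2.24 (KO 2) and 2.17 (KO 3) (chr3:142300719-142300778, mm9). The KO arrays were both below the WT arrays, yet WT 3 was within 0.16 of KO 3, and the difference of -0.44, or 1.36-fold lower, had an SE of 0.31 (limma adjusted p = 0.9999). Gbp3 differed by -0.22 (SE 0.32), with KO 2 above WT 3. Tap1, one chain of the transporter that carries peptides to MHC class I, was at -1.63 (WT 2), -1.73 (WT 3), -2.53 (KO 2) and -1.99 (KO 3) (chr17:34330854-34330913, mm9). Its WT arrays were close together and both KO arrays were below them, with -0.58, or 1.497-fold lower (SE 0.29), made of -0.91 at number 2 and -0.26 at number 3. It was -0.27 under normexp and -0.31 without KO 2. Psmb9, an immunoproteasome subunit gene beside Tap1 on chromosome 17, was at 2.42 (WT 2), 2.03 (WT 3), 1.94 (KO 2) and 1.94 (KO 3) (difference -0.28, SE 0.25). WT 2 alone stood high, and the same held for Psmb8, the neighbouring subunit gene, which differed by -0.22 (SE 0.27) and by 0.11 at number 3.

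Tap1, Gbp2, Psmb9, Parp14 and Rtp4 were the 5 members (12.5%) whose KO arrays both lay below both WT arrays, an arrangement seen in 10.9% of all tested probes, and 0 members had both KO arrays above, against 13.1% of probes. Without KO 2, 16 members (40%) had KO 3 below both WT arrays and 9 (22.5%) had it above both, where 34.3% and 39.7% of probes did. The median of the members without KO 2 was -0.09 and without KO 3 it was -0.07. Leaving out any 1 array leaves an arm of 1 array, whose spread is assumed to equal that of the other genotype, so no p-values of these fits are given.

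The difference within each number was next compared across the list. At number 2 the median of the members was -0.09, with 16 higher and 24 lower in KO, and at number 3 it was 0.01, with 21 higher and 19 lower. The number 3 median was -0.01 under normexp and -0.02 under quantile normalization. Only 7 members were higher in KO at both numbers and 10 lower at both, and the other 23 had opposite signs. Among all tested probes, 7030 were higher at both, 6156 lower at both and 15119 opposite. The number itself separated the arrays of many members. Both number 2 arrays lay above both number 3 arrays in 17 members (42.5%; 28.7% of all tested probes), among them Irf7, Usp18, Rsad2, Cmpk2, Oasl1, Mx2 and the IFIT genes. The reverse held in 7 members (17.5%; 32% of all tested probes), among them Ifih1, Oas3, Bst2 and Trim25. These shares describe single arrays that also differ in Xist and Y-linked signal, and were not tested.

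**Figure D3:**
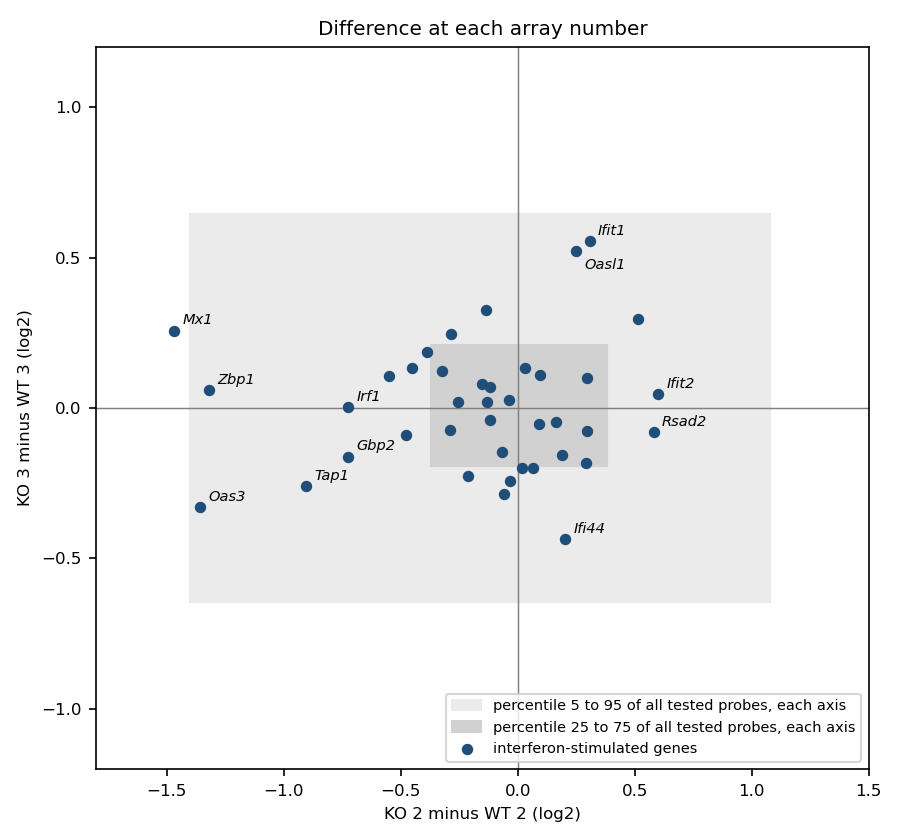
KO minus WT in log2 units at number 2 (horizontal) and at number 3 (vertical) for each interferon-stimulated gene, over the central range of all tested probes on each axis (dark grey: the middle quartiles, light grey: between the outer percentiles named in the key). Mx1, Oas3 and Zbp1 lie to the left at -1.47, -1.36 and -1.32, with 0.26, -0.33 and 0.06 at number 3, and Ifit1 and Oasl1 lie above 0 on both axes.

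Cell type markers were set beside the interferon-stimulated genes at each number. At number 2 the median difference of the markers was -1.41 for leukocytes, -2.47 for neutrophils, -1.58 for lymphocytes, -0.86 for fibroblasts, 0.53 for endothelial cells and 0.89 for cardiomyocytes, beside -0.09 for the interferon-stimulated genes. At number 3 the leukocyte markers had a median of 0.25, with all 12 higher in KO, the cardiomyocyte markers had a median of -0.70, with 11 of 12 lower, and the interferon-stimulated genes had a median of 0.01. The medians of the other markers there were 0.05 for neutrophils, 0.07 for lymphocytes, -0.0017 for fibroblasts and -0.21 for endothelial cells. Summed neutrophil signal was 26.8 (WT 2), 33.6 (WT 3), 4.93 (KO 2) and 34.0 (KO 3), and that of 10 lymphocyte markers was 3.17, 2.99, 0.57 and 4.05 in the same order, so KO 2 was lowest in both. Siglech, which marks plasmacytoid dendritic cells, the specialised producers of type I interferon, was not well above background on any array. The other 5 of 6 markers listed for these cells were tested. The median difference of the 6, which counts the dim Siglech, was -1.37 at number 2 and 0.37 at number 3. Of the 5 tested, the middle value was -1.57 (Ly6d) at number 2 and 0.25 (Ccr9) at number 3. Klk1 and Spib were not well above background on KO 2, so their number 2 differences are only bounds. The same holds for Cxcr2 among the neutrophil markers and for Cd2 and Cd8a among the lymphocyte markers. The part of cell composition in the member values was not tested.

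**Figure D4:**
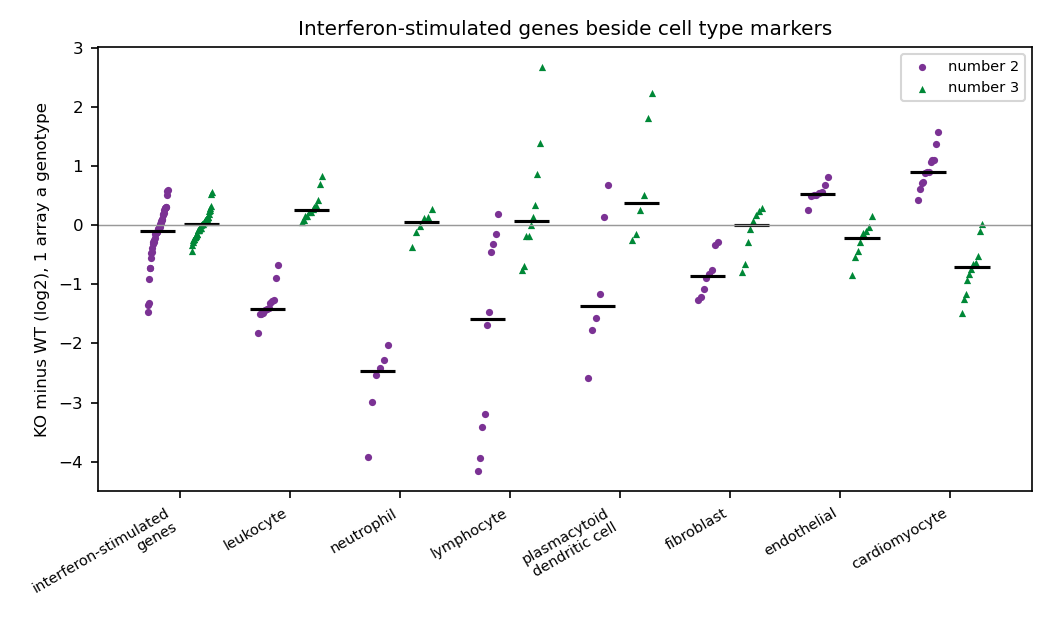
KO minus WT in log2 units at number 2 (circles) and number 3 (triangles) for the 40 interferon-stimulated genes and for marker genes of 7 cell types, 1 point a gene with the median as a bar. Leukocyte, neutrophil and lymphocyte medians lie between -2.47 and -1.41 at number 2, whereas the interferon-stimulated genes centre on -0.09 and 0.01.

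The rest of the pathway was read from 76 other genes on the array, of which 70 were tested. Of these, 16 were higher and 54 lower in KO, with a median of -0.16. Of all tested probes, 14808 were higher and 13497 lower. At number 2, 19 of the 70 genes were higher, with a median of -0.19, and at number 3, 33 were higher, with a median of -0.02. None of the 70 was called and none had an unadjusted limma p under 0.05. Of 7 interferon ligand genes only Ifng and Ifna2 were bright enough to be tested, and Ifna2 belongs to a family of near-identical genes that its probe may not tell apart. Ifnb1, the gene of interferon beta, was not well above background on any array. Ifng, the gene of interferon gamma, made chiefly by T and natural killer cells, was at -2.40 on WT 2, -4.44 on WT 3 and -4.62 on KO 3, and was not well above background on KO 2. Since KO 2 gives only a bound, no fold is given for it at number 2, and the fitted -2.55 (SE 1.25, limma adjusted p = 0.9999), which takes the signal of KO 2 as it stands, is not a measured size. At number 3 the difference was -0.18. KO 2 was also the array with the lowest lymphocyte signal. The share of that signal in the value of Ifng was not tested.

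The receptors and their kinases numbered 12, all tested, with 5 higher and 7 lower. Ifnar1 was at -0.36 (WT 2), 0.00 (WT 3), -0.88 (KO 2) and 0.01 (KO 3), and Ifnar2 was at 2.98, 3.13, 2.78 and 3.15 in the same order. In both genes KO 2 was lowest and KO 3 highest, with differences of -0.26 for Ifnar1 and -0.09 for Ifnar2. Socs1, a feedback inhibitor of Jak kinases, was at 0.75 (WT 2), -0.06 (WT 3), -0.84 (KO 2) and -0.26 (KO 3). The KO arrays were both below the WT arrays, and the difference of -0.89 was -1.59 at number 2 and -0.19 at number 3.

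Induction machinery, meaning further sensors such as Tlr3, Tlr7 and Tlr9 with the adaptors, kinases and factors that lead to the ligand genes, comprised 14 genes, with 4 higher and 10 lower. A further 42 tested interferon-stimulated genes gave 7 higher and 35 lower, with a median of -0.19. At number 2, 9 of them were higher (median -0.29), and at number 3, 18 were higher (median -0.05). Cxcl10, a chemokine that draws T cells, was at 2.53 (WT 2), 0.96 (WT 3), 1.26 (KO 2) and 2.00 (KO 3), and its difference of -0.11 joined -1.27 at number 2 to 1.04 at number 3. Cxcl9, which shares its receptor and depends on interferon gamma, was at 1.26 (WT 2), -0.83 (WT 3), 0.30 (KO 2) and -1.93 (KO 3). It was lower in KO at both numbers, by -0.96 and -1.09, yet the number 2 arrays stood above the number 3 arrays by 2.09 in WT and 2.23 in KO, so the genotypes overlapped (difference -1.03, limma adjusted p = 0.9999).

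Members were also described by whether their promoter held the ISRE letters. The 13 members with the letters in their promoter had a median difference of -0.05, with 5 higher and 8 lower, and the 18 with a record and no match had one of -0.05, with 6 higher and 12 lower. Members with the letters ran from -0.84 for Oas3 to 0.43 for Ifit1, both of whose matches are printed above, and thus covered the whole range of the list.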

How the data were processed

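RNA of left ventricle at 7 days after MI was measured on 4 one-colour Agilent arrays, 2 WT and 2 KO, grouped by the titles. The authors deposited each array's intensity values from Feature Extraction 10.7.3.1, which are background-subtracted and spatially detrended per the file headers, with coordinates on mm9, and a table of log2 values made with GeneSpring. Of the 41168 deposited log2 values for each array, at least 99.9% matched the log2 intensity after quantile normalization to within 0.01, so their scale and direction are those of the scanner. Column medians were 6.78.

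Control and flagged spots (92 to 116 per array) were left out, spots of a probe were averaged, and log2 intensity was shifted by the 75th percentile of each array, which ran from 607.6 to 976.1. No spot was saturated, and 68.15% to 72.04% of probes were well above background. A probe entered the fit if both arrays of either genotype were well above background, which gave 28305 probes. They were fitted with limma 3.58.1 (lmFit, eBayes, R 4.3.3), and p-values were adjusted over all of them after Benjamini and Hochberg. A call needed an adjusted p under 0.05 and a fold over 2. The fit was also run on simulated arrays with large known changes and independent noise. They lack the shared deviation of arrays of the same number, so they do not show how the fit performs on these data. The number of arrays limits the precision.

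Members and lists were chosen with earlier results of these data known. Values on every array are given for 7 members picked by role (Irf7, Irf9, Stat2, Isg15, Ifit1, Ifih1 and Gbp2), the 5 highest and 5 lowest differences, and members whose genotypes did not overlap. Other pathway genes named are Ifnar1, Ifnar2, Ifnb1, Ifng, Cxcl10 and the 3 widest differences, and 1 further gene of this rule is not reported here. Irf1 and other members are given beyond this rule by their differences. Alternatives were quantile normalization, normexp (offset 50), the median in place of the percentile, the deposited log2 values, other filters, a block for the array number, leaving out each array, trend and robust estimation, the methods' t-test and the mean of the probes of a gene. The exon position of probes was not determined.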

Additional observations from a re-analysis of the deposited data

Results flagged for a closer look

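Zbp1 and Mx1 pointed in opposite directions at the 2 array numbers, with more than 2-fold at number 2. KO minus WT was -1.32 at number 2 and 0.06 at number 3 for Zbp1, and -1.47 and 0.26 for Mx1. Each value rests on 1 array a genotype, so the difference between numbers was not tested.

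Xist, which lies outside the comparisons, reached a log2 signal of 14.13 (WT 2) and 13.24 (KO 2) in samples labelled male, and was near background on both number 3 arrays.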

How the results depend on the processing

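No alternative called a member or another pathway gene, and none of the limma fits called a probe. The methods' t-test with a fold over 2 gave 88 probes with p unadjusted, none of them a member, and 0 after Benjamini-Hochberg adjustment. The median of the members stayed between -0.08 and -0.04 under the alternatives that kept all arrays and between -0.10 and -0.06 with 1 array left out. Normexp background correction moved the median of all tested probes from 0.02 to 0.13, while that of the members was -0.07. The median of the members at number 2 was -0.17 under quantile normalization, -0.17 with the deposited values and -0.03 under the median shift. At number 3 it was -0.01 under normexp, -0.02 under quantile normalization and -0.02 with the deposited values. Array number was not stated to pair the mice, and arrays of the same number deviated together with r = 0.57 over probes. With the replicate block, 0 members were called and their median was -0.07, while probes at an unadjusted p under 0.05 went from 410 to 602.

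Of the 144 values of named members under alternatives that kept all arrays, 3 changed sign. These were Isg15 (0.0082, shift by the median), Ifih1 (0.0187, mean of its probes) and Mx1 (0.0989, normexp). Without 1 array, 10 of 72 changed sign, 7 of them without KO 2. The range was -0.31 without KO 2 to 0.17 without KO 3 for Irf7. Between the values without KO 3 and without KO 2, Stat2 ran from -0.26 to 0.0566, Isg15 from -0.20 to 0.16, Mx1 from -1.32 to 0.11, Cmpk2 from 0.81 to -0.0019, Ifit2 from 0.87 to -0.22 and Rsad2 from 0.63 to -0.13. Ifih1 ran from -0.13 to 0.0219. The cause of these changes was not tested. A block for slide or scan was not run, since there was 1 of each.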

Other observations

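Iigp1, Gbp6 and Igtp, interferon-inducible GTPase genes outside the 40 that were singled out after their values were seen, differed more by array number than by genotype, while Irgm2, another such gene, did not, with -0.54 by genotype and 0.35 in WT and -0.31 in KO by number. Iigp1 was at 4.004 (WT 2) and 3.86 (KO 2) but 2.68 (WT 3) and 2.13 (KO 3). Gbp6 was at 0.81 (WT 2) and 1.03 (KO 2) but -0.91 (WT 3) and -1.71 (KO 3). Igtp was at 3.93 and 3.40 on the number 2 arrays of WT and KO, and at 2.82 and 2.63 on the number 3 arrays. KO minus WT was -0.35 for Iigp1, -0.29 for Gbp6 and -0.36 for Igtp. Of the induction machinery, Tlr7 and Irf5, receptor and factor genes that leukocytes are known to express, were lowest on KO 2, at -1.16 and -0.87, against 0.09 to 1.32 and 0.71 to 1.36 on the other arrays. Leukocyte markers were also lowest on KO 2, and the part of these in the values was not tested.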
